A study of Mus musculus with 6 samples.

Results

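The genes described here fold, import and dispose of proteins in the endoplasmic reticulum (ER), together with the sensors of the unfolded protein response. They were chosen by name and function, with no measured value in the rule, as 39 gene symbols. Of these, 37 had at least 1 probe set annotated to that symbol alone, out of 18193 genes named in this way, and together they had 97 of the 45037 probe sets tested. Fkbp10 had no probe set under its own symbol here, and Sec61g was named only on a probe set shared with another gene, so neither was measured.

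The samples came from C2C12, a mouse muscle cell line that divides as single myoblasts in rich medium and fuses into myotubes when serum is lowered. It was analyzed as differentiated cultures on day 6 in 2% horse serum and as proliferating cultures in 20% serum. There were 3 arrays for each group, each hybridized with RNA pooled from several culture plates and several days, so that replicate error here describes how pools differ. The labels name no transgene and no drug in either group. At day 6 a part of the population consists of multinucleated myotubes and the rest of mononucleated cells, and these bulk signals cannot tell fewer cells of a type from less RNA per cell. Transcript levels were measured on the Affymetrix Mouse Genome 430 2.0 array as MAS 5.0 signals, scaled on each array to the same trimmed mean of 250.001 to 250.002 units.

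Proteins that are to be secreted or placed in membranes enter the ER through the Sec61 channel, are bound there by chaperones such as BiP, calnexin and calreticulin, and receive disulfide bonds from protein disulfide isomerases. Proteins that do not fold are moved back to the cytosol, ubiquitinated and degraded by the proteasome. When unfolded proteins build up, 3 membrane sensors, IRE1, PERK and ATF6, start a response that raises the transcripts of chaperones and degradation factors and slows translation. In muscle, the same membrane system also forms the sarcoplasmic reticulum, which stores the calcium for contraction.

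Promoter sequences are shown first, because the response is known to act on its target genes through short elements near the transcription start. The ER stress response element (ERSE) was searched as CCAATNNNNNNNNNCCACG, the shorter ERSE-II as ATTGGNCCACG and the unfolded protein response element (UPRE) as TGACGTGG, each on both strands of the 250 bases before and 50 bases after the start of each gene (RefSeq, GRCm38.p6). Read on the opposite strand the UPRE begins with CCACG, so that it can overlap the end of an ERSE. Of the 39 genes, 31 had a promoter entry. Fkbp10, Derl1, Ssr2, Sec61a1, Erlin2, Atf6, Hyou1 and Manf had none and were not searched. The ERSE was found in 8 of these 31, while it was found in 37 of all 27025 genes with an entry (0.137%) and in 39 of all 32851 promoter entries (0.119%). ERSE-II was found in 2 of the 31 genes and in 12 of all genes (0.0444%). No UPRE was found in the promoters of the 31 genes, and 193 of all genes held one (0.714%). A match is a description of the letters, and the ERSE was itself defined from promoters of chaperone genes.

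The sites of the 10 genes are given below from 5′ to 3′ in the direction of the motif, with the fixed bases of the motif in capitals. They are shown because their genes include one that rose, a pair that fell and 7 that did not pass the test.
Herpud1: ATTGGgCCACG
Dnajb11: ATTGGcCCACG
Hspa5: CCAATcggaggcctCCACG
Hsp90b1, upstream site: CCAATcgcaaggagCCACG
Hsp90b1, downstream site: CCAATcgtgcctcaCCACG
Calr: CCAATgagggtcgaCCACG
Canx: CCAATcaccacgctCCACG
Dnajc3: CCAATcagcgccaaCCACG
Syvn1: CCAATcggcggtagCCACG
Creld2: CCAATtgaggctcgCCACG
Pdia6: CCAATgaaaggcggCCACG

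In 9 of these 10 genes every site lay before the start, at positions -212 to -26 relative to it, and in Dnajb11 the site lay 8 to 18 bases after it. The 250 bases before the start are printed for 3 of them, one from each class of result, with the motif in capitals. They lie at chr8:94386179-94386428 on the plus strand for Herpud1, which rose, at chr2:34771840-34772089 on the plus strand for Hspa5, which did not pass, and at chr12:17266339-17266588 on the plus strand for Pdia6, which fell.
Herpud1: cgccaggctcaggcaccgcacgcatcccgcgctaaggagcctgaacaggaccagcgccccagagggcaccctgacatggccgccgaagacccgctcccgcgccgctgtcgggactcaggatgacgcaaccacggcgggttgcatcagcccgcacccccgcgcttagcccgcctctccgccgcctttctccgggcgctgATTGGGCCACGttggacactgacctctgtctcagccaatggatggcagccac
Hspa5: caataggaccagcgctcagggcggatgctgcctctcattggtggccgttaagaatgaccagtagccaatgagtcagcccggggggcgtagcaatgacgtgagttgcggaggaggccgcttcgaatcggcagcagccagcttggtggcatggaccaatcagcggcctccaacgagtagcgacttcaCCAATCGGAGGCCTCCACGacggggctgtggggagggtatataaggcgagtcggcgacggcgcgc
Pdia6: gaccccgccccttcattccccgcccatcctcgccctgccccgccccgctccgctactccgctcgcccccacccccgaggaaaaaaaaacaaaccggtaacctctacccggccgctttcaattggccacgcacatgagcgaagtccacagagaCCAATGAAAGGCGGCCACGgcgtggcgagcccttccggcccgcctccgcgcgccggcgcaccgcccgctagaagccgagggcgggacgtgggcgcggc

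Genes of this system were called in both directions, as were named genes at large. On day 6, 7 of the 37 measured genes were higher and 11 were lower than in proliferating cells, and 19 did not pass the test (limma, Benjamini-Hochberg adjusted p under 0.05). Each gene is represented by its brightest probe set, and of all 18193 named genes 8.63% were higher and 9% were lower by the same rule. Bright probe sets pass more often, and among the 6341 genes at least as bright as the dimmest of the 37 genes, 17.6% were higher and 20.4% were lower. The median log2 change (differentiated minus proliferating) of the 37 genes was -0.23, beside 0.06 for all named genes and -0.03 for the 6341 bright ones. In 29 of the 37 genes the signals of the groups did not overlap, against 33.4% of all named genes. That share includes dim genes and was not computed for the 6341 bright ones. A change of at least 1.5-fold was reached by 4 of the higher genes (Dnajb9, Herpud1, Atf6 and Erlin2) and by 5 of the lower genes (Serp1, Sec61a1, Ssr1, Sec61b and Pdia6). The calls of Dnajb9, Herpud1, Atf6, Serp1, Sec61a1 and Ssr1 held under all 17 alternative settings tried, though not every setting could change them.

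**Figure D1:**
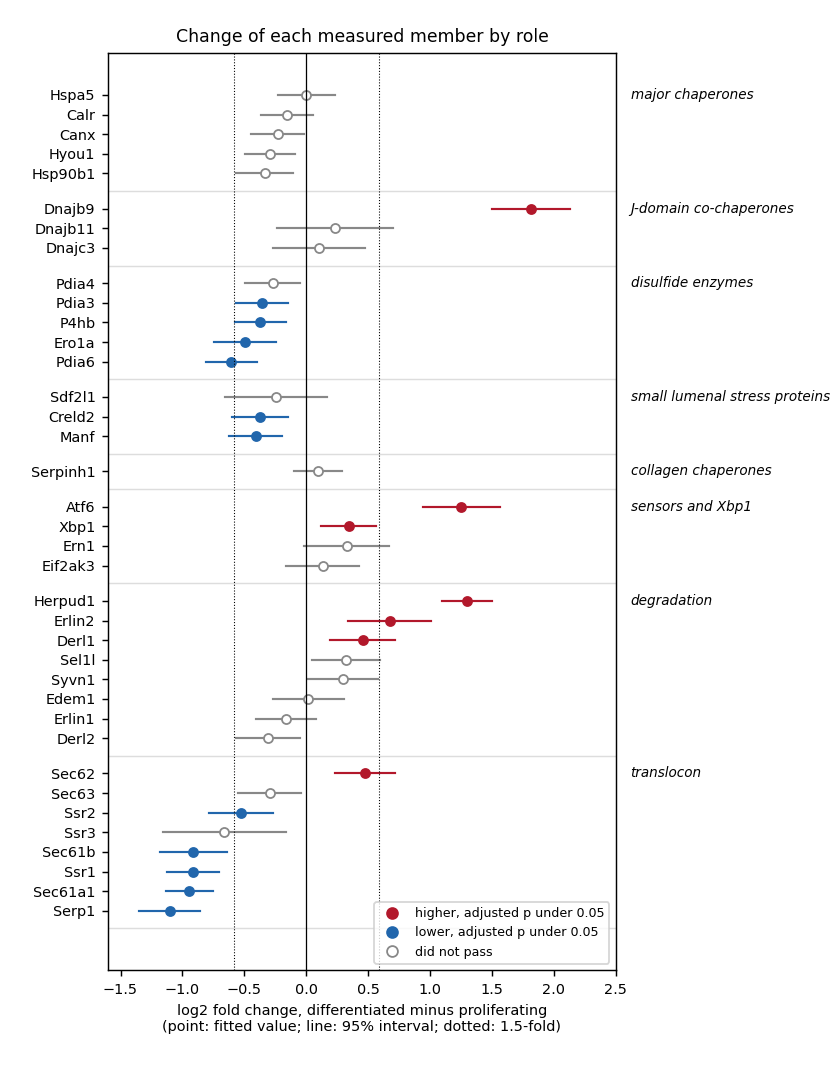
Fitted log2 fold change (differentiated minus proliferating, x axis) of the 37 measured genes, grouped by role, with the 95% interval of each value as a line and the 1.5-fold limits dotted. The genes that fell sit mostly in the translocon and among the disulfide enzymes, those that rose among the sensors and the degradation genes, and Dnajb9 has the highest value (1.82).

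As a check of the labels, all 6 skeletal muscle markers (Myog, Mymk, Acta1, Ckm, Des and Myh3) rose, with a median log2 change of 5.42, and the 3 measured markers of dividing cells (Mki67, Top2a and Birc5) fell, with a median of -3.79. Of the markers of undifferentiated muscle cells, Pax7 was not above the bacterial control probe sets on any array and Myf5 (-0.10) and Cd34 (0.50) did not pass. Of the markers of other cell types, Pparg of fat cells fell (-0.75), while Adipoq, Fabp4 and the bone marker Sp7 did not pass, with Adipoq and Fabp4 not above the bacterial controls on any proliferating array. The muscle and dividing-cell markers and Pparg thus moved with the groups, and their part in the changes below was not tested. Median array signals were 72.3 to 81.4 in differentiated cells and 68.0 to 73.0 in proliferating cells. All 37 genes were above the brightest bacterial control (51.9 to 87.0 over the 6 arrays) on every array.

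The largest group of changes was in the translocon, the channel and its partners through which new proteins enter the ER. Of its 8 measured genes, 5 were lower in differentiated cells, Sec62 was higher, and Sec63 and Ssr3 did not pass. The median log2 change of the 8 genes was -0.79.

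Sec61a1, which codes for the subunit that forms the channel, had signals of 1909, 1916 and 1838 in differentiated cells, against 3731, 3463 and 3764 in proliferating cells. The groups lay far apart, and the transcript was 1.93-fold lower on day 6 (log2 change -0.95, SE 0.09, adjusted p = 9.2e-06). Of its 6 probe sets 5 were lower, with log2 changes between -0.82 and -1.36, and the dimmest did not pass (0.01).

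Sec61b, a small subunit of the same channel, had signals of 1478, 1329 and 1667 in differentiated cells, against 2556, 3371 and 2566 in proliferating cells. It was 1.88-fold lower (log2 change -0.91, SE 0.13, adjusted p = 0.00026), and all its differentiated arrays were below all its proliferating ones. Serp1, a small membrane protein that binds the channel and stabilizes new membrane proteins under stress, had signals of 1139, 907 and 1208 in differentiated cells, against 2339, 2424 and 2230 in proliferating cells. This was the deepest fall among the 37 brightest probe sets, 2.15-fold (log2 change -1.10, SE 0.11, adjusted p = 2.3e-05), and the second probe set also fell (-0.64).

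The translocon-associated protein complex sits beside the channel and helps some proteins to enter. Its subunit Ssr1 had signals of 1890, 2141 and 1760 in differentiated cells, against 3658, 3607 and 3671 in proliferating cells. The fall was 1.89-fold (log2 change -0.92, SE 0.10, adjusted p = 2.8e-05), and of its 4 probe sets the 2 brightest fell. Ssr2 had signals of 726, 673 and 739 in differentiated cells, against 977, 1212 and 931 in proliferating cells, a fall of 0.53 on the log2 scale (adjusted p = 0.0097).

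Ssr3 was less clear. On its brightest probe set, of a type that can bind more than 1 transcript, it gave 4733, 3463 and 2134 in differentiated cells, against 4162, 5459 and 6135 in proliferating cells. Those groups overlapped, with differentiated replicate 1 above proliferating replicate 1, and the change did not pass (log2 change -0.66, SE 0.23, adjusted p = 0.087). The second probe set, with less spread, gave 2942, 2790 and 3101 in differentiated cells, against 4401, 4117 and 3728 in proliferating cells, and was lower (-0.47, adjusted p = 0.0055). Without differentiated replicate 1 the brightest probe set passed as well (-0.93, adjusted p = 0.017).

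Sec62 and Sec63 are membrane partners of the channel that act in import after translation. Sec62 was the translocon gene that rose, with signals of 1909, 1652 and 2083 in differentiated cells, against 1504, 1268 and 1272 in proliferating cells. The groups did not overlap (log2 change 0.47, SE 0.11, adjusted p = 0.013), and 3 of its 5 probe sets were higher. Of the other 2, neither of which passed, 1 gave 0.06 and the dimmest gave -1.12 (adjusted p = 0.16), with 12.9 to 27.8 units in differentiated cells, below the bacterial controls, and 49.2 to 75.3 in proliferating cells. With all probe sets averaged Sec62 was at 0.24 and did not pass. The call held in 3 of 6 fits with 1 array left out, at adjusted p of up to 0.062. Sec63 had signals of 649 to 664 in differentiated cells, against 721 to 927 in proliferating cells, which did not pass (-0.29, adjusted p = 0.14).

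**Figure D2:**
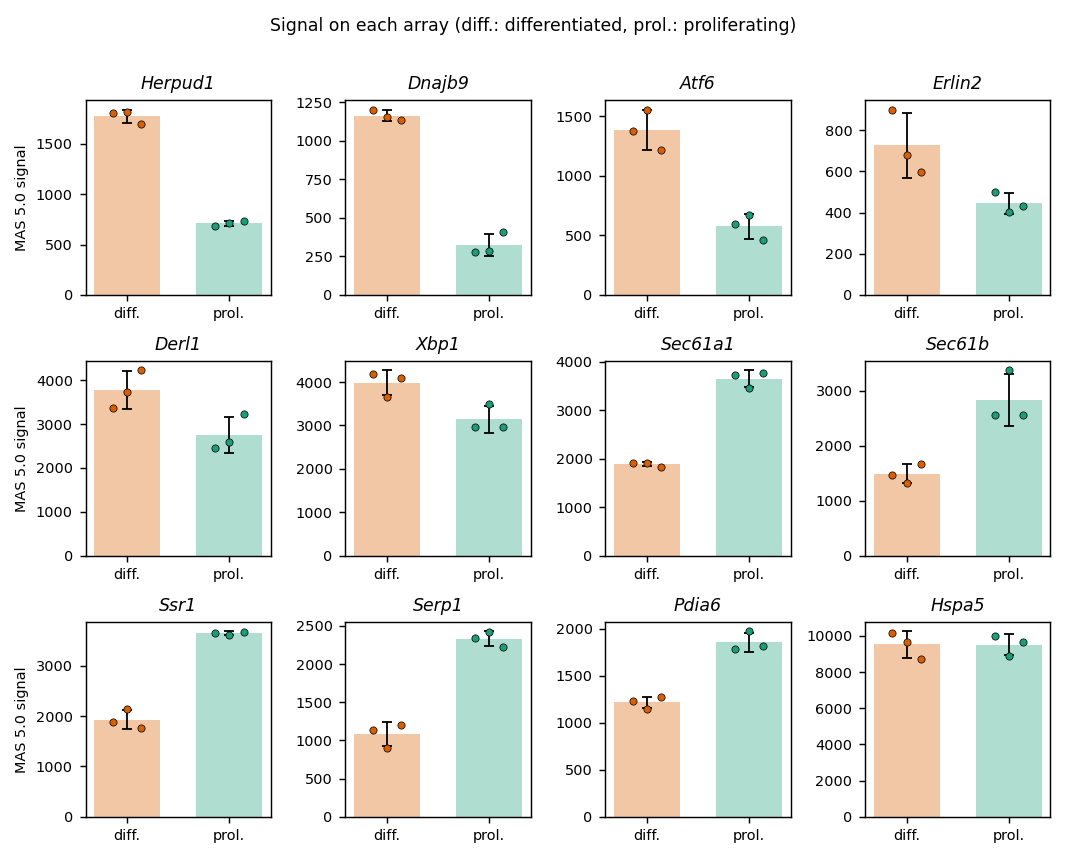
MAS 5.0 signal on each array (points) for the 9 genes that changed at least 1.5-fold and for Derl1, Xbp1 and Hspa5, with bars for the group mean and lines for the SD (3 arrays each, differentiated left of proliferating). Each panel has its own axis from 0. The 3 points of each group stand apart from those of the other group in every panel but that of Hspa5.

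BiP, calnexin, calreticulin, GRP94 and GRP170 are the abundant chaperones of the ER lumen and membrane. None of these 5 genes passed on its brightest probe set, with log2 changes between -0.34 and 0.00. Hspa5, which codes for BiP, had signals of 10168, 9675 and 8747 in differentiated cells, against 10013, 8899 and 9651 in proliferating cells. The groups overlapped fully, with means of 9530 ± 722 in differentiated cells and 9521 ± 568 in proliferating cells (SD, n = 3 each), and the 95% interval of the log2 change ran from -0.23 to 0.23. The other 2 probe sets gave 0.21 and 0.33, each with no overlap of the groups, and did not pass either (adjusted p = 0.20 and 0.093).

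Hsp90b1, which codes for GRP94, had signals of 3499, 3426 and 3035 in differentiated cells, against 4478, 3678 and 4452 in proliferating cells. The groups did not overlap, but the change did not pass (-0.34, adjusted p = 0.061), while the second probe set was lower (-0.71, adjusted p = 0.0042). Without proliferating replicate 2 the brightest probe set passed too (-0.43, adjusted p = 0.017). Canx, for calnexin, behaved in the same manner, with -0.23 (adjusted p = 0.18) on the brightest probe set and a fall on the second (-0.48, adjusted p = 0.0075). For both genes the probe sets gave different calls. Hyou1, for GRP170, gave 1158 to 1233 in differentiated cells, against 1403 to 1520 in proliferating cells (-0.29, adjusted p = 0.057). With arrays scaled to the same 75th percentile, and likewise with dim probe sets left out, Hsp90b1 (-0.39 and -0.34) and Hyou1 (-0.35 and -0.29) passed as lower on the brightest probe set. Calr, for calreticulin, gave 5731 to 6238 in differentiated cells, against 6216 to 7026 in proliferating cells, and its groups overlapped (-0.15, adjusted p = 0.40). On its other probe sets, at -0.19 and -0.23, the groups did not overlap, and neither passed (adjusted p = 0.25 and 0.13).

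J-domain proteins bring substrates to BiP and start its ATP cycle. Dnajb9, also known as ERdj4, showed the largest rise among the 37 genes, with signals of 1203, 1155 and 1134 in differentiated cells, against 281, 282 and 409 in proliferating cells. It was 3.53-fold higher (log2 change 1.82, SE 0.15, adjusted p = 2.5e-06), and the lowest differentiated array was far above the highest proliferating one. This gene had 1 probe set. Dnajb11 varied widely, with 1050, 1486 and 2021 in differentiated cells and 1172, 1656 and 995 in proliferating cells, and did not pass (0.23, adjusted p = 0.61). Dnajc3, also known as p58IPK, an inhibitor of PERK, gave 370 to 471 in differentiated cells, against 296 to 446 in proliferating cells (0.11, adjusted p = 0.80).

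The enzymes that form disulfide bonds were all fitted lower in differentiated cells, and 4 of the 5 passed. In none of the 5 did the groups overlap, and the median log2 change was -0.37. Under quantile normalization 2 of the 5 passed, with Pdia3 at -0.18 and P4hb at -0.24 no longer called. Pdia6 had signals of 1231, 1147 and 1272 in differentiated cells, against 1782, 1973 and 1818 in proliferating cells. It was 1.52-fold lower (log2 change -0.60, SE 0.09, adjusted p = 0.00069), and all differentiated arrays lay well below the proliferating ones. Its second probe set, not above the bacterial controls on any proliferating array, gave 0.63 and did not pass.

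Ero1a, the oxidase that recharges the isomerases, had signals of 826, 915 and 773 in differentiated cells, against 1268, 1042 and 1260 in proliferating cells (-0.50, adjusted p = 0.011), and 2 of its 3 probe sets were lower. P4hb, which codes for protein disulfide isomerase, also the beta subunit of collagen prolyl 4-hydroxylase, gave 6570, 6226 and 6096 in differentiated cells, against 7927, 8520 and 7971 in proliferating cells (-0.37, adjusted p = 0.020). Pdia3, for ERp57, which works with calnexin and calreticulin, gave 5415, 4812 and 5591 in differentiated cells, against 6660, 6602 and 6952 in proliferating cells (-0.36, adjusted p = 0.029). On the brightest probe sets these falls were below 1.5-fold, and another probe set of Ero1a fell 1.66-fold (-0.73, adjusted p = 0.00083). With 1 array left out at a time, the call held in 4 of 6 fits for Ero1a, in 2 for Pdia3 and in 1 for P4hb, at adjusted p of up to 0.055, 0.16 and 0.087. Pdia4 gave 836 to 895 in differentiated cells, against 948 to 1086 in proliferating cells, and did not pass (-0.27, adjusted p = 0.12).

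Among the small lumenal proteins that ER stress is known to induce, Manf and Creld2 were lower and Sdf2l1 did not pass. Manf, a secreted factor that binds BiP, had signals of 1498, 1781 and 1714 in differentiated cells, against 2106, 2353 and 2176 in proliferating cells. The log2 change was -0.41 (SE 0.10, adjusted p = 0.015), with no overlap of the groups. Creld2 gave 678, 715 and 714 in differentiated cells, against 917, 983 and 850 in proliferating cells (-0.38, adjusted p = 0.032). Without differentiated replicate 1, Manf no longer passed (-0.34, adjusted p = 0.087), and Creld2 passed in 1 of 6 fits with an array left out (adjusted p 0.039 to 0.11). Sdf2l1 overlapped between the groups, with 215 to 345 in differentiated cells and 297 to 380 in proliferating cells (-0.24, adjusted p = 0.53). Serpinh1, which codes for the collagen chaperone HSP47, gave 5441, 5432 and 5318 in differentiated cells, against 4798, 5204 and 5131 in proliferating cells. Its groups were separate by a small margin and the change did not pass (0.10, 95% interval -0.10 to 0.29, adjusted p = 0.61).

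Of the sensors and their transcription factors, Atf6 and Xbp1 were higher in differentiated cells and Ern1 and Eif2ak3 did not pass. Atf6, a membrane-bound transcription factor that is released by cleavage, had signals of 1377, 1555 and 1219 in differentiated cells, against 598, 669 and 459 in proliferating cells. It was 2.38-fold higher (log2 change 1.25, SE 0.14, adjusted p = 5.5e-05), with no overlap. This rose on 1 of its 3 probe sets, the brightest, and the other 2 gave 0.18 and 0.10 and did not pass.

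Xbp1, whose mRNA is spliced by IRE1 to give the active factor, had signals of 4195, 3658 and 4091 in differentiated cells, against 2960, 3502 and 2958 in proliferating cells. The margin between the groups was narrow, with differentiated replicate 2 just above proliferating replicate 2, and the change was small (log2 change 0.34, SE 0.10, adjusted p = 0.046). Of its 4 probe sets, 2 were higher and the other 2 gave 0.28 and 0.38 without passing. It kept its call in 1 of 6 fits with an array left out (0.30 to 0.42, adjusted p 0.017 to 0.18). Ern1, which codes for IRE1, gave 351 to 432 in differentiated cells, against 262 to 348 in proliferating cells (0.33, adjusted p = 0.25). Eif2ak3, for PERK, gave 369 to 383 in differentiated cells, against 323 to 361 in proliferating cells (0.13, adjusted p = 0.65). Neither cleavage of ATF6 nor splicing of Xbp1 was measured by these transcript levels.

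The genes of ER-associated degradation included 3 that rose and none that fell by the brightest probe set, out of 8. Their median log2 change was 0.31. Of the 6341 bright genes, 17.6% were higher and 20.4% were lower. Herpud1, a membrane protein of the ubiquitin ligase complex and a known target of the unfolded protein response, had signals of 1805, 1819 and 1695 in differentiated cells, against 687, 710 and 739 in proliferating cells. It was 2.46-fold higher (log2 change 1.30, SE 0.09, adjusted p = 1.1e-06), and the arrays of each group lay close together. The second probe set was higher as well (1.06).

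Derl1, a derlin that takes part in moving proteins out of the ER, had signals of 3374, 3724 and 4220 in differentiated cells, against 2460, 2583 and 3219 in proliferating cells. The groups were separate (log2 change 0.46, SE 0.12, adjusted p = 0.025), and each of its 4 probe sets was higher, by 0.45 to 0.59. On the brightest, the call held in 2 of 6 fits with an array left out (adjusted p 0.011 to 0.11). Derl2, its relative, gave 577 to 630 in differentiated cells, against 664 to 844 in proliferating cells, and did not pass (-0.31, adjusted p = 0.13). Erlin2, which with Erlin1 forms a complex that targets activated inositol trisphosphate receptors for degradation, had signals of 901, 681 and 598 in differentiated cells, against 500, 404 and 431 in proliferating cells (0.67, SE 0.15, adjusted p = 0.011). Differentiated replicate 1 was the highest of these arrays, and without it Erlin2 did not pass (0.51, adjusted p = 0.063). Erlin1 did not pass (-0.17, adjusted p = 0.45).

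Sel1l and Syvn1, the scaffold and the ubiquitin ligase (HRD1) of the same complex, were fitted higher at 0.32 and 0.30, and neither passed (adjusted p = 0.14 and 0.20). For Sel1l, 1 of 5 probe sets was higher (0.47, adjusted p = 0.030). Edem1, a lectin that directs glycoproteins to degradation, gave 467 to 475 in differentiated cells and 402 to 522 in proliferating cells on its brightest probe set, where the log2 change was 0.02 (adjusted p = 0.97). On its second, it gave 172, 110 and 153 in differentiated cells, against 323, 337 and 280 in proliferating cells, and was lower (-1.05, adjusted p = 0.0041). The 2 probe sets of Edem1 thus gave different calls, and which of them reads the main transcript was not tested.

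**Figure D3:**
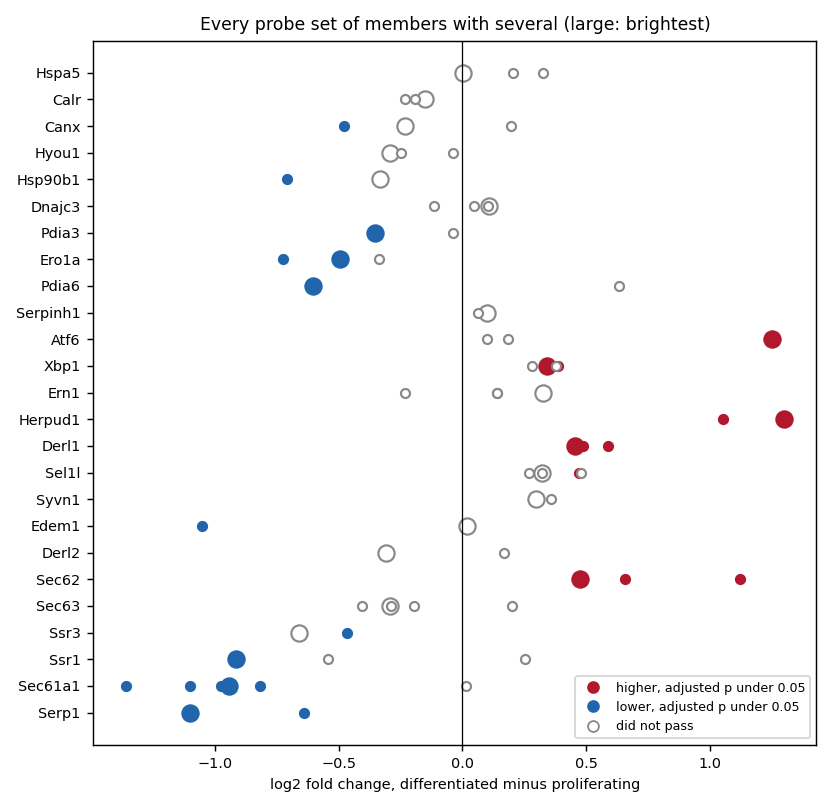
Log2 fold change (differentiated minus proliferating, x axis) of the probe sets that exceeded the bacterial controls on all 3 arrays of at least 1 group. Genes with more than 1 such probe set are drawn, so that Pdia4, Eif2ak3 and Erlin1 are absent, as is the dimmest probe set of Sec62 (-1.12). The brightest is drawn large, with filled symbols for an adjusted p under 0.05. All 4 probe sets of Derl1 and 5 of 6 of Sec61a1 passed in 1 direction, while Atf6, Canx, Hsp90b1, Edem1 and Ssr3 passed on some probe sets and not on others.

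The 37 genes had 97 probe sets in all, of which 15 rose, 22 fell and 60 did not pass, while of all 45037 probe sets 6.14% rose and 6.43% fell. In at least 1 of the groups, 89 of the 97 exceeded the bacterial controls on all 3 arrays. No gene had probe sets that passed in opposite directions.

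Of the 10 genes with an ERSE or ERSE-II in the promoter, 1 rose (Herpud1), 2 fell (Pdia6 and Creld2) and 7 did not pass, with a median log2 change of -0.08. Among the other genes with a promoter entry, 20 were measured, of which 3 rose, 6 fell and 11 did not pass, with a median of -0.26. The genes without an entry included Atf6, Erlin2 and Derl1, which rose, and Sec61a1, Ssr2 and Manf, which fell. The sites printed above therefore belong to genes of all 3 classes, and the lengths and spacing of the motifs are the same in each by construction. Of the 6341 bright genes, 17.6% were higher and 20.4% were lower, so that no shift of the 10 genes is read from these counts.

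Genes of the same pathway outside the 39 were taken from lists by function, with 75 of 77 measured. Of these 75, 14 rose, 11 fell and 50 did not pass, with a median log2 change of 0.03. Of all named genes 8.63% were higher and 9% lower, and of the bright ones 17.6% and 20.4%, so that no shift of the 75 genes as a whole is read from these counts.

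On the import side, the oligosaccharyltransferase, which attaches glycans to proteins as they enter, had 4 of 7 genes lower, 0 higher and a median of -0.50. These were Rpn1 (-0.55, adjusted p = 0.0012), Rpn2 (-0.51), Stt3b (-0.50) and Ostc (-0.50), of which Stt3b is a catalytic subunit. Stt3a did not pass on its brightest probe set, and a dimmer one was lower (-0.68, adjusted p = 0.0013). Signal peptidase, which removes the targeting peptide, had Spcs3 (-0.43) and Sec11a (-0.37) lower and Spcs1 (0.37) higher among 5 genes. The signal recognition particle and its receptor had 1 of 7 genes higher, Srp14 (0.52), and none lower. None of 4 further translocon genes and none of 6 genes of glycan trimming passed on the brightest probe set. Dimmer probe sets of Mlec (-0.54, adjusted p = 0.0020) and Lman1 (-0.47, adjusted p = 0.026), both of glycan trimming, were lower.

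On the disposal side, 6 of 15 further degradation genes were higher and 0 were lower by the brightest probe set, with a median of 0.31. A dimmer probe set of Ube2j1 was lower (-0.46, adjusted p = 0.033). The largest changes were in Edem3 (0.73, adjusted p = 0.011), Erlec1 (0.69), the ubiquitin-conjugating enzyme Ube2g2 (0.61) and the lectin Os9 (0.53).

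Further folding factors went both ways, with 3 of 10 higher and 3 lower. Sil1, a nucleotide exchange factor of BiP, had signals of 702, 596 and 625 in differentiated cells, against 333, 361 and 321 in proliferating cells (0.89, adjusted p = 0.00034). Fkbp14 was also higher (0.52), while Pdia5 (-0.67) and the prolyl isomerase Ppib (-0.62) were lower.

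Downstream of PERK, 1 of 6 genes was higher and 2 were lower. Ppp1r15a, the phosphatase subunit GADD34 that restores translation, had signals of 863, 781 and 899 in differentiated cells, against 280, 519 and 401 in proliferating cells (1.10, SE 0.18, adjusted p = 0.0011). Ddit3, for the transcription factor CHOP, had signals of 755, 820 and 849 in differentiated cells, against 1149, 1226 and 1113 in proliferating cells (-0.52, SE 0.10, adjusted p = 0.0036). These 2 genes, both known targets of the PERK arm, thus changed in opposite directions, and the groups overlapped in neither. Ppp1r15b, the constitutively expressed paralogue of GADD34 and an alternative subunit of the same phosphatase, was lower (-0.34, adjusted p = 0.038), and Atf4, Trib3 and Chac1 did not pass. Of 6 other sensors and their proteases, Creb3, an ER-bound transcription factor related to ATF6, was higher (0.62, adjusted p = 0.0025).

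Collagens are large clients of the ER. By the brightest probe set, P4ha1 was higher (0.44) and none was lower of 9 genes that modify collagen. Of 5 collagen genes, Col3a1 was higher in this way (0.57, adjusted p = 0.0054). Dimmer probe sets of P3h1 (1.08), Col1a1 (0.42), Col5a1 (0.49) and Col5a2 (1.16) were also higher, and one of Col1a2 was lower (-0.50).

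**Figure D4:**
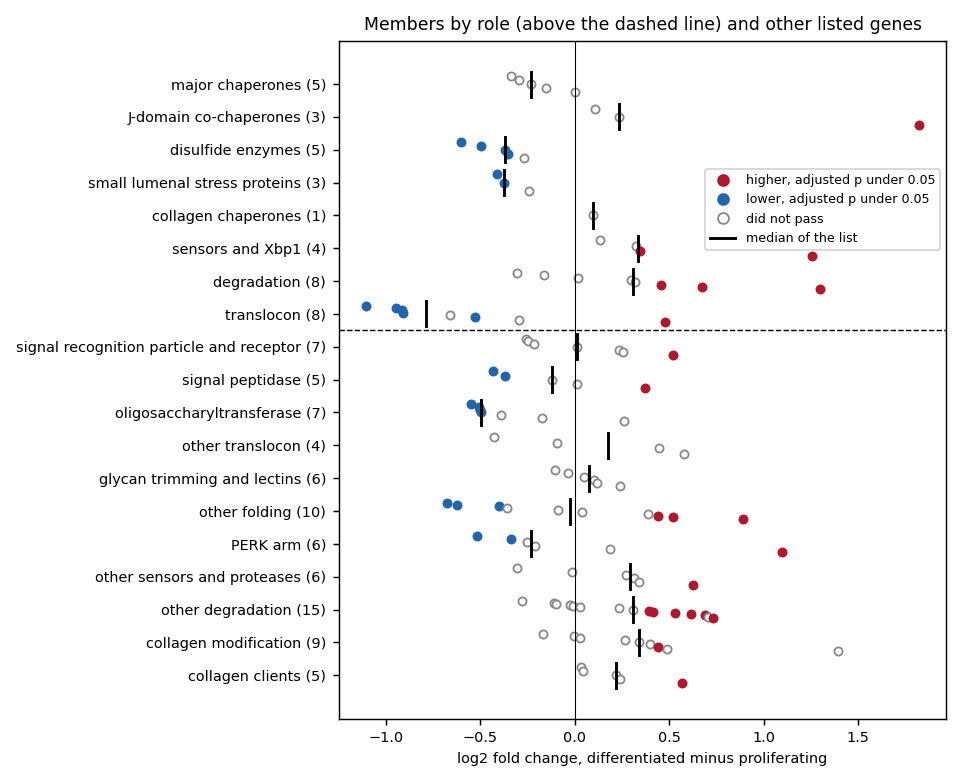
Log2 fold change (differentiated minus proliferating, x axis) of each measured gene by list, with the number measured in brackets and a bar at the list median, for the 37 genes above the dashed line and for further genes of the pathway below it. The oligosaccharyltransferase lies near the translocon on the lower side (medians -0.50 and -0.79), and both degradation lists have a median of 0.31.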

How the data were processed

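The 6 arrays were 3 of differentiated and 3 of proliferating C2C12 cells, 1 sample per array. The values are linear MAS 5.0 signal intensities, deposited by the authors, scaled on each array to a common trimmed mean. The study then applied GCRMA, which needs probe-level data and was not repeated here. Sequencing depth does not apply, and the number of arrays limits the precision.

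The array has 45101 probe sets, and 64 of them, the Affymetrix controls, were not tested. Values were taken as log2(signal + 15), the pseudocount being close to percentile 20 of all signals (14.8). The fits used limma 3.58.1 (lmFit, eBayes with trend) in R 4.3.3 on all 6 arrays, 2-sided, with Benjamini-Hochberg adjustment over 45037 probe sets, and every adjusted p in the text comes from them. Fold changes are on the log2(signal + 15) scale. The test was tried on simulated data first. With 3 against 3 arrays an exact permutation test cannot go below 0.1, so none was used.

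A gene is represented by the probe set with the highest mean log2 signal among those annotated to it alone. The platform annotation gave 34945 probe sets 1 symbol, 932 several and 9160 none. All 39 genes are named, and from each further list up to 4 passing genes with the largest change are named. Outside this rule, Atf4, Trib3, Chac1 and the markers were named after their values were seen or as markers. Stt3a, Mlec, Lman1, Ube2j1, P3h1, Col1a1, Col1a2, Col5a1 and Col5a2 did not pass on the brightest probe set. They were named after a dimmer one was seen to pass. The brightest of 27 Bacillus subtilis control probe sets on an array served as background. The members, lists and tests were chosen with earlier results of these data known. Alternatives covered scaling, pseudocount, dim probe sets, the variance model, a Bayesian regularized test (window 101, prior df 10), the fold limit, a replicate block, the choice of probe sets and leaving out each array. Tables and motif searches used numpy 2.4.6 and pandas 2.3.3 under Python 3.11.15, and figures matplotlib 3.10.9.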

Additional observations from a re-analysis of the deposited data

How the results depend on the processing

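Under 17 alternative settings, 6 genes kept their call in every one, with Dnajb9, Herpud1 and Atf6 higher and Sec61a1, Ssr1 and Serp1 lower. The 1.5-fold limit could not change these calls, since each of the 6 genes already reached it. Nor could leaving out probe sets named _s_at or _x_at, since the brightest ones of these genes had other names. Sec61b kept its call in 16 settings, Pdia6, Erlin2 and Ssr2 in 15, Manf in 14, Ero1a in 13, Sec62 in 11, Derl1 in 10, Pdia3 and P4hb in 9, Creld2 in 8 and Xbp1 in 7. Of 629 values of single genes, 543 stayed on the same side of the threshold with the same sign. With the same sign, 61 no longer passed and 13 newly passed, and 12 changed sign, whether or not they passed. The 12 include Pdia6, which lost its call, and Edem1, which gained one, both with all probe sets averaged.

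With eBayes without a variance trend, 3 genes were higher and 3 lower in place of 7 and 11, and over all probe sets 1367 were higher and 1302 lower in place of 2765 and 2894. Requiring 1.5-fold left 4 higher and 5 lower. Leaving out 1 array gave 4 to 6 higher and 8 to 10 lower, and it was 4 higher without differentiated replicate 1 (Erlin2, Sec62 and Xbp1 lost) and without differentiated replicate 3 (Derl1, Sec62 and Xbp1 lost). Leaving out dim probe sets gave 7 higher and 14 lower, with Hsp90b1, Hyou1 and Ssr3 added, and a pseudocount at the 40th percentile added Hyou1. Quantile normalization gave 7 higher and 9 lower, without Pdia3 and P4hb. Arrays scaled to the same 75th percentile gave 6 higher and 13 lower, with Hsp90b1 and Hyou1 added and Xbp1 lost, and the share of higher calls among all called genes was 43.2% in place of 48.9%.

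Signs changed in these values. At the same 75th percentile, Hspa5 was -0.0523 and Edem1 -0.0343. Under quantile normalization Calr was 0.0174. With all probe sets averaged, Pdia6 was 0.0147, Eif2ak3 -0.0661 and Edem1 -0.518, the last passing as lower. These means take in dimmer probe sets, at 0.63 for Pdia6, -0.39 and 0.06 for Eif2ak3 and -1.05 for Edem1. Those of Eif2ak3 were not above the bacterial controls on any array, and that of Pdia6 on no proliferating array. Leaving out 1 array moved Hspa5 between -0.0477 and 0.0607, Dnajc3 between -0.0529 and 0.231 and Edem1 between -0.086 and 0.0976. The cause of the sign changes in the settings without averaging was not tested.

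Replicates with the same number did not deviate together (correlations 0.0125, 0.0007 and 0.0094). A replicate block gave 6 higher and 10 lower genes, without Xbp1 and Creld2, and 2580 higher and 2707 lower probe sets. The deposited signals, 3 arrays per group of pooled RNA and probe sets that can differ within a gene limit these values.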
